A study of Homo sapiens with 6 samples.

Results

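The expression of 10 imprinted growth genes, *H19*, *IGF2*, *MEG3*, *CDKN1C*, *DLK1*, *PEG3*, *PEG10*, *MEST*, *GRB10* and *PLAGL1*, was examined in TC32, an established Ewing sarcoma cell line. The 10 genes were chosen by symbol from the 26931 listed, and *H19* led the choice because its level differed between the control siRNA and the targeting siRNAs in these same libraries. Cells were grown in RPMI medium with fetal bovine serum and transfected with the control siRNA siNeg, with siEWSR1 or with siFLI1, and total RNA was taken 48 h later. Each of the 3 groups had 2 libraries, 6 in all, and no group was left untransfected. Ewing sarcoma cells carry a fusion of *EWSR1* with an ETS factor gene, most often *FLI1*, so an siRNA against either partner can also target the fusion transcript. All results come from 1 cell line, and the labels do not state whether the 2 libraries of a group came from separate cultures. P-values therefore reflect the spread between these particular libraries, which may be technical only.

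Imprinted genes are transcribed mainly from the copy inherited from 1 parent, and DNA methylation laid down in the germ line marks which copy that is. *H19*, a long noncoding RNA made from the maternal copy, and *IGF2*, a fetal growth factor made from the paternal copy, share enhancers and a control region at which CTCF binds the unmethylated copy. Paternally expressed imprinted genes often favour fetal growth and maternally expressed ones often restrain it. FPKM, the fragment count of a gene scaled to transcript length and library size, sums both parental copies of a gene, so the values below do not say which copy was transcribed.

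The members lie in separate imprinted regions (hg19 positions). On chromosome 11, *H19* (2016406 to 2022696) lies 127.6 kb from *IGF2* (2150342 to 2170833), and *CDKN1C* (2904448 to 2906995) follows 733.6 kb further on. On chromosome 14, *DLK1* (101193202 to 101204561) and *MEG3* (101292445 to 101327360) lie 87.88 kb apart. Chromosome 7 carries *GRB10* (50657760 to 50861159), *PEG10* (94285637 to 94299006) and *MEST* (130126016 to 130146138), which are far from one another. *PLAGL1* lies on chromosome 6 (144261437 to 144385736) and *PEG3* on chromosome 19 (57321445 to 57352094).

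Sequences are shown for the 2 long noncoding RNAs of the set, for which RefSeq gives 1 start (*H19*) or 3 that lie close together (*MEG3*), and for the microRNA carried by *H19*. Each promoter window spans 250 bases before to 50 after the RefSeq start, 5′ to 3′ on the gene's own strand in GRCh38.p14. Capitals mark GGAA, the core that ETS factors bind, or TGACGTCA, the CRE element bound by CREB and ATF factors, on either strand, so that a GGAA on the other strand reads TTCC. The *H19* window lies at chr11:2001217-2001516 on the minus strand, and the *MEG3* window, the first of 3 RefSeq starts, at chr14:100825858-100826157 on the plus strand.
H19 promoter: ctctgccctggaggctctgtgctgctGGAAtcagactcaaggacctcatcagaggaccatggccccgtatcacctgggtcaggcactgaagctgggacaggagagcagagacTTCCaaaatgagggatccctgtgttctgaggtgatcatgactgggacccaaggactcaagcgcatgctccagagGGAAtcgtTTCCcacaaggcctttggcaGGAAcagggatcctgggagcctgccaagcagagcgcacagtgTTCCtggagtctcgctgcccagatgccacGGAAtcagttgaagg
MEG3 promoter: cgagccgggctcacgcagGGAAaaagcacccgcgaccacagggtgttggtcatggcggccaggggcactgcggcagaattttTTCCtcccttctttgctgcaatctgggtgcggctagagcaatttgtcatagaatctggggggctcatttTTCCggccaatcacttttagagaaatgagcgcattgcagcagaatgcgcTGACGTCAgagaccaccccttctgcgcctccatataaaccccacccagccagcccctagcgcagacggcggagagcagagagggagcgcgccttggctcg

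The *H19* window held 7 GGAA cores, at 224, 138, 64, 56 and 36 bases before and 6 and 35 bases after the start, and no GGAAGGAA, the tandem form. The *MEG3* window held 3 GGAA cores, 1 TGACGTCA at 50 bases before the start and 1 TATAAA (not in capitals) at 18 bases before it. Of 35116 RefSeq promoter windows of the same length, 95.5% held GGAA (median 3 per window, overlapping matches inside GGAAGGAA included), 3.67% GGAAGGAA, 1.85% TGACGTCA and 11.5% TATAAA. A match describes the letters only. No binding was measured here, nor which start the transcripts used.

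The *H19* transcript is the precursor of miR-675, whose 2 mature arms have different seeds (bases 2 to 8, in capitals).
miR-675-5p: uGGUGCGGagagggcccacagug
miR-675-3p: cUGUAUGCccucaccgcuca

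The *MIR675* row read 0 FPKM in all 6 libraries, including the 4 in which its host *H19* was abundant, as did the rows of *MIR770*, hosted by *MEG3*, and *MIR335*, hosted by *MEST*. A gene-level table of longer RNA does not measure mature microRNAs, so nothing was read from these zeros.

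*H19* was barely detected with siNeg and was among the abundant RNAs with either siRNA. The siNeg libraries read 0.042 and 0.069 FPKM, the siEWSR1 libraries 102.6 and 111.6 FPKM, and the siFLI1 libraries 88.9 and 104.3 FPKM. The upper deposited 95% bounds of the siNeg values were 0.116 and 0.153 FPKM, while the lowest of the 4 lower bounds with a targeting siRNA was 84.9 FPKM. Read back from those bounds, the siNeg values correspond to about 1.28 and 2.77 fragments and the others to about 1952 to 2113. These are approximations and not counts. On that reading the size of the fold is set by a few fragments in the control. By mean FPKM, *H19* stood at rank 16347 of 26931 symbols with siNeg, 427 with siEWSR1 and 526 with siFLI1. In bulk RNA, more cells with *H19* and more *H19* per cell cannot be told apart.

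On the log2(FPKM + 0.5) scale, *H19* was higher by 7.60 ± 0.09 (SE) with siEWSR1 and by 7.45 ± 0.09 with siFLI1. Among 13043 tested genes these were the 4th and the 3rd highest differences. The added 0.5 shrinks them: with a pseudocount of 0.1 they were 9.43 and 9.28, and with a pseudocount of 1 they were 6.68 and 6.53. Because *H19* was chosen for this contrast, the values are a description and carry no test.

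*IGF2*, the neighbour of *H19*, was lower by far in level. It read 0.024 and 0.025 FPKM with siNeg, 1.15 and 1.36 FPKM with siEWSR1. With siFLI1 it read 0.404 and 0.498 FPKM. All 3 groups were separate, with siEWSR1 highest, and mean *H19* exceeded mean *IGF2* in both siRNA groups. On the log2(FPKM + 0.5) scale *IGF2* was higher than with siNeg by 1.74 ± 0.13 with siEWSR1 and by 0.86 ± 0.13 with siFLI1, although quantile normalization brought these to 1.01 and -0.03 and a pseudocount of 0.1 to 3.44 and 2.14. The gene passed the filter on low values only through the siEWSR1 libraries.

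**Figure D1:**
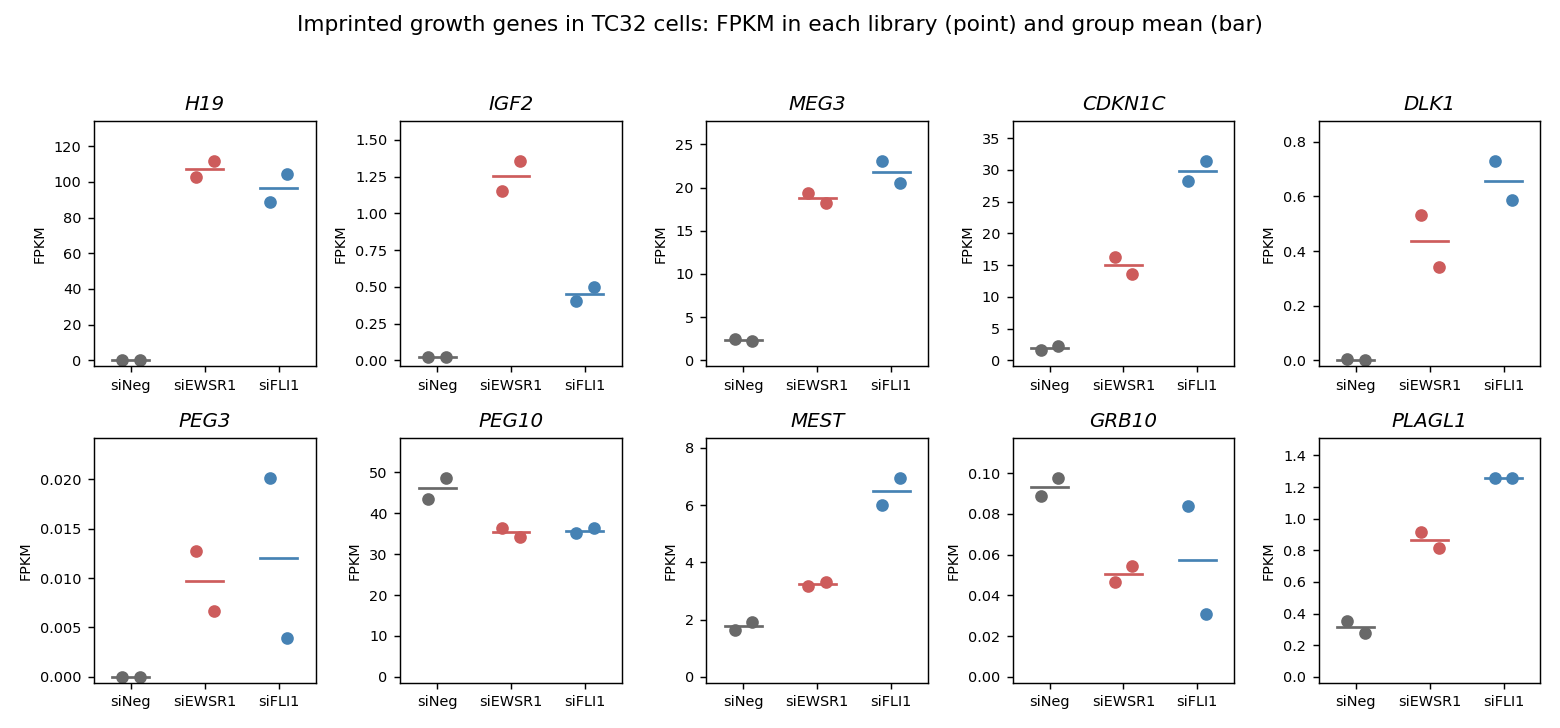
FPKM of each of the 10 members (y axis, linear, its own scale per panel) by siRNA group (x axis). Points are libraries and bars are group means. *H19* reads 102.6 and 111.6 FPKM with siEWSR1 against 0.042 and 0.069 with siNeg, whereas *PEG10* and *GRB10* are highest with siNeg.

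The other maternally expressed members with measurable levels were higher with both siRNAs. *MEG3*, a long noncoding RNA of the *DLK1* region, read 2.5 and 2.27 FPKM with siNeg, 19.4 and 18.2 with siEWSR1, and 23.1 and 20.6 with siFLI1. On the log2(FPKM + 0.5) scale it was higher by 2.74 ± 0.08 and 2.95 ± 0.08. *CDKN1C*, an inhibitor of cyclin-dependent kinases, read 1.61 and 2.24 FPKM with siNeg, 16.3 and 13.7 with siEWSR1, and 28.3 and 31.4 with siFLI1. Against siNeg this came to log2 differences of 2.68 ± 0.14 and 3.66 ± 0.14, and the 3 groups did not overlap.

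Paternally expressed members went both ways. *MEST*, which encodes a hydrolase-like membrane protein, read 1.65 and 1.93 FPKM with siNeg, 3.19 and 3.32 with siEWSR1, and 6.01 and 6.96 with siFLI1, with no overlap between groups. *PLAGL1*, a zinc finger transcription factor, read 0.351 and 0.275 FPKM with siNeg, 0.914 and 0.812 with siEWSR1, and 1.26 in both siFLI1 libraries. Its log2 difference of 0.75 ± 0.11 with siEWSR1 was -0.02 under quantile normalization, and it passed the filter only through the siFLI1 libraries. *PEG10*, a gene derived from a retrotransposon, was the most abundant member with siNeg (43.4 and 48.7 FPKM) and read 36.4 and 34.2 FPKM with siEWSR1 and 35.1 and 36.3 FPKM with siFLI1. Against siNeg this came to log2 differences of -0.38 ± 0.07 and -0.36 ± 0.07.

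The remaining 3 members stayed under the filter, which asks for 1 FPKM in at least 2 libraries, and were not tested. *DLK1*, a transmembrane inhibitor of adipocyte differentiation related to the Notch ligands, was listed at 0.0057 and 0 FPKM with siNeg, 0.530 and 0.341 with siEWSR1, and 0.729 and 0.586 with siFLI1, so both siRNA groups lay above the control. *PEG3*, a zinc finger gene, reached at most 0.0202 FPKM in any library, a level with no more than about 3.39 fragments behind it. *GRB10*, an adaptor that binds insulin and IGF receptors, read 0.089 and 0.098 FPKM with siNeg and 0.031 to 0.084 FPKM in the 4 others. Its values have only about 2.89 to 12.7 fragments behind them, and the siNeg value of *DLK1* above 0 about 0.33.

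In each comparison with siNeg, 6 of the 7 tested members passed the threshold as higher and *PEG10* as lower (limma, adjusted p under 0.05). Of all 13043 genes, 33.2% were called higher and 31.0% lower with siEWSR1, and 35.7% higher and 29.6% lower with siFLI1. In both comparisons, which share the siNeg libraries, 8 of 10 members lay above and 2 below the control without overlap. Of all 26931 symbols 31.9% lay above and 24.1% below it without overlap with siEWSR1, and 34.3% and 23.0% with siFLI1. Since the members were chosen with these differences in view, and 3 of the 7 passed the filter only through siRNA libraries, nothing was read from these counts.

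The difference between siEWSR1 and siFLI1 uses no siNeg level, although the siNeg libraries add to the shared spread. The members were chosen with earlier results of these data known, so the choice may not be independent of this difference. It was tested for the members, apart from *IGF2* and *PLAGL1*, which passed the filter only through the siRNA group in which they were higher. Of the other 5, *CDKN1C* and *MEST* were lower with siEWSR1 and none was higher, whereas over all genes 0.79% were called higher and 3.07% lower. *CDKN1C* was 2.00-fold higher in mean FPKM with siFLI1 (siEWSR1 minus siFLI1 on the log2(FPKM + 0.5) scale -0.98 ± 0.14, limma adjusted p = 0.0258). *MEST* was 1.99-fold higher with siFLI1 (-0.89 ± 0.10, limma adjusted p = 0.015). No such difference was called for *H19* (0.15 ± 0.09, limma adjusted p = 0.365), *MEG3* (-0.21 ± 0.08, 0.187) or *PEG10* (-0.02 ± 0.07, 0.915).

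As a description, *IGF2* was 2.78-fold higher in mean FPKM with siEWSR1 than with siFLI1 (log2(FPKM + 0.5) difference 0.88 ± 0.13) and *PLAGL1* 1.46-fold higher with siFLI1 (-0.37 ± 0.11). When genes of every level were kept in the fit, so that entry did not depend on the level, *IGF2* did not pass the threshold (limma adjusted p = 0.05004). Without overlap between the siRNA groups, *IGF2* lay higher with siEWSR1 and *MEG3*, *CDKN1C*, *DLK1*, *MEST* and *PLAGL1* lay lower. Over all 26931 symbols 14.0% lay higher and 22.6% lower without overlap.

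The calls of *CDKN1C* and *MEST* rest on few libraries. Both were lost without siEWSR1 replicate 2 (limma adjusted p = 0.0843 and 0.0509), siFLI1 replicate 1 (0.113 and 0.0739), siFLI1 replicate 2 (0.193 and 0.14), or the filter (0.0883 and 0.0636). Each of these fits kept the direction of both differences. Over all genes, the number called between the siRNAs was 504 and ranged from 5 (without siFLI1 replicate 2) to 593 when 1 library was left out.

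**Figure D2:**
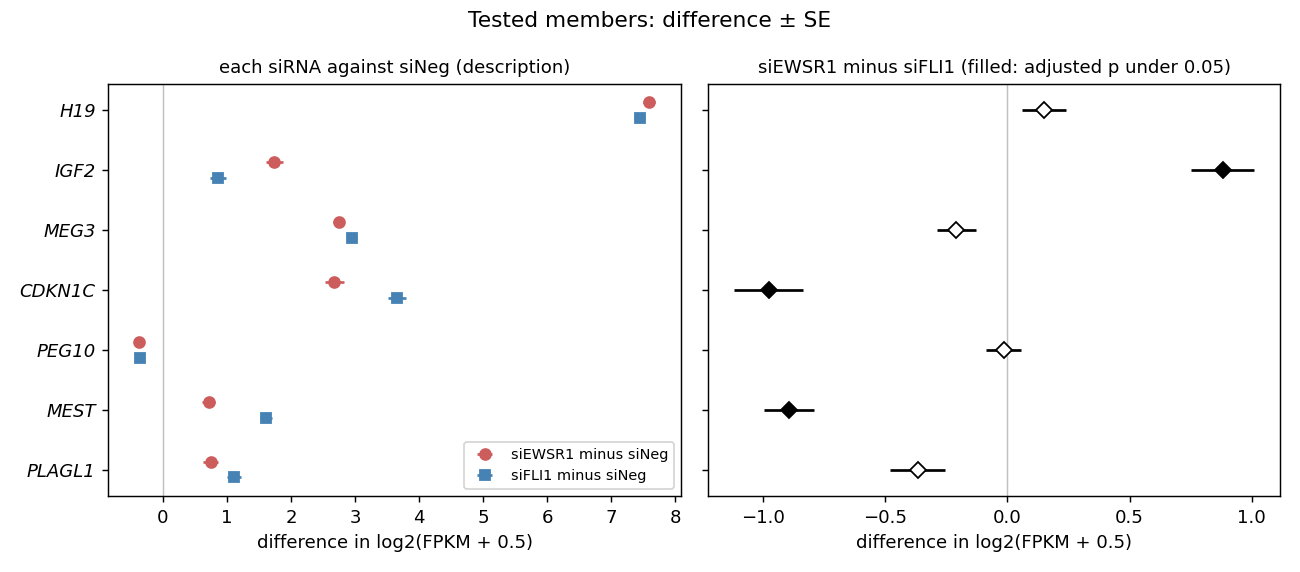
Differences in log2(FPKM + 0.5) for the 7 tested members, with standard errors from limma: each siRNA against siNeg on the left, siEWSR1 minus siFLI1 on the right, where filled symbols have an adjusted p under 0.05. *H19* stands apart at 7.60 and 7.45 on the left, and *CDKN1C* (-0.98) and *MEST* (-0.89) are filled on the right, as is *IGF2* (0.88), whose entry to the fit depended on its siEWSR1 level.

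Within 250 kb of *H19* the table lists 21 non-member rows, of which 7 were tested. In each comparison 6 of the 7 were called higher, but 5 of them (*SNORD131*, *LSP1*, *TNNI2*, *SYT8* and *IFITM10*) were under 1 FPKM in both siNeg libraries and passed the filter only through the siRNA libraries. Their entry thus depended on being high there, and nothing was read from the count of 6. The shares called higher over all genes were 33.2% with siEWSR1 and 35.7% with siFLI1. Of the 2 other tested neighbours, *CTSD* rose and *MRPL23* did not pass. *LSP1*, an actin-binding protein of leukocytes, went from 0.412 and 0.368 FPKM with siNeg to 4.07 and 4.77 with siEWSR1 and 6.67 and 6.99 with siFLI1. *TNNI2*, a troponin of fast skeletal muscle, was listed at 0 in both siNeg libraries and at 2.24 and 3.63 FPKM with siEWSR1 and 1.97 and 2.40 with siFLI1. *SNORD131*, a small nucleolar RNA gene inside *MRPL23*, was listed at 0 with siNeg, at 7.99 and 14.7 FPKM with siEWSR1 and at 4.19 and 4.33 with siFLI1, and its short length inflates the unit.

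The following neighbours were singled out after their values were seen. *CTSD*, a lysosomal protease 231.2 kb from *H19*, rose from 42.0 and 47.6 FPKM with siNeg to 130.4 and 128.5 with siEWSR1 and 144.0 and 160.7 with siFLI1. *SYT8* and *IFITM10* went from at most 0.0871 FPKM in a siNeg library to at least 1.5 FPKM in every siRNA library. *MRPL23*, a mitochondrial ribosomal protein gene and the nearest tested one at 38.57 kb, did not pass (-0.03 ± 0.10 with each siRNA). *MRPL23-AS1*, only 5.256 kb away, was under the filter and read 1.09 and 0.985 FPKM with siNeg, 0.475 and 0.304 with siEWSR1 and 0.265 and 0.213 with siFLI1, lower where *H19* was higher.

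Of the rows that overlap a member, *HOTS*, on the opposite strand of *H19*, read 0.114 and 0.0972 FPKM with siNeg and 0.220 to 0.368 FPKM in the 4 siRNA libraries. *INS-IGF2* and *IGF2-AS* stayed at or under 0.032 FPKM in all 6. The sources used here give no strand setting for the counting, so reads of overlapping genes could not be assigned with certainty.

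**Figure D3:**
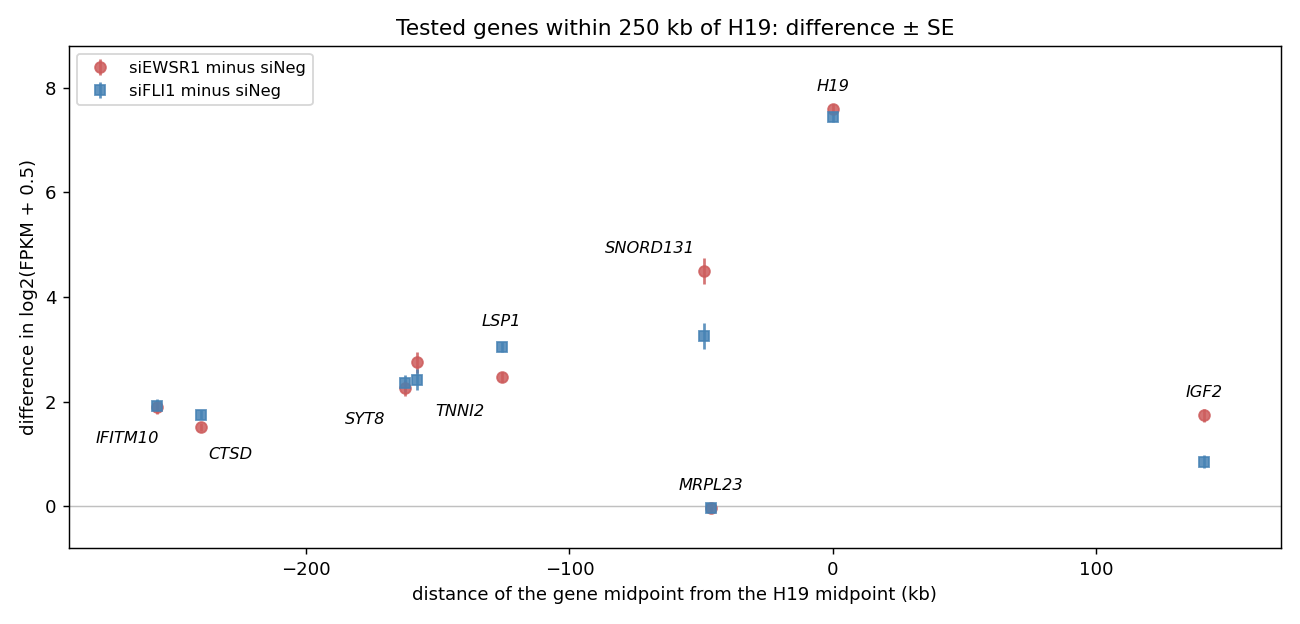
Difference from siNeg in log2(FPKM + 0.5) with standard error (y axis) of *H19*, *IGF2* and the 7 tested non-member genes within 250 kb, by distance of gene midpoints from that of *H19* in kb (x axis). *MRPL23* lies at -0.03 beside *SNORD131*, and genes listed at 0 with siNeg have a height that depends on the pseudocount.

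Outside the *H19* and *IGF2* windows, 17 non-member genes near the other members were tested, of which 16 reached 1 FPKM in a siNeg library. With siEWSR1 4 were called higher and 4 lower, and with siFLI1 4 higher and 3 lower. The shares over all genes given above were 33.2% and 31.0%, and 35.7% and 29.6%. Nothing was read from these counts, and no contrast with the *H19* window was drawn. Beside *CDKN1C*, *CARS*, a cysteinyl-tRNA synthetase, fell from 68.2 and 60.5 FPKM with siNeg to 17.3 and 16.5 with siEWSR1 and 17.8 and 18.3 with siFLI1 (log2 -1.90 ± 0.07 and -1.81 ± 0.07, limma adjusted p = 7.6e-06 and 7.18e-06). *OSBPL5*, an imprinted lipid transfer gene in the same window, rose by 0.67 ± 0.07 and 0.69 ± 0.07. *SGCE*, which starts 116 bases from *PEG10* and is also paternally expressed, differed by -0.16 ± 0.06 with siEWSR1 (limma adjusted p = 0.0484) and by 0.01 ± 0.06 with siFLI1 (0.87). *COPG2*, which overlaps *MEST*, read 17.6 to 19.8 FPKM in all 6 libraries and was not called.

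In the *DLK1* and *MEG3* region few other rows were measurable. Of 51 rows within 250 kb of *DLK1* 45 read 0 in every library, and the 1 tested, *WDR25*, rose from 1.73 and 1.46 FPKM with siNeg to 2.62 and 2.29 with siEWSR1 and 2.24 and 2.33 with siFLI1. Of 97 rows within 250 kb of *MEG3*, 92 read 0 in every library and none passed the filter. The noncoding *MEG8* and *MEG9*, named after their values were seen, were listed at 0 and at 0.0105 to 0.0451 FPKM with siNeg. With the siRNAs they read 0.0933 to 0.437 and 0.738 to 1.01 FPKM, above both siNeg libraries in all 4.

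A wider list of 60 other imprinted genes was measured beside the members. The table held 55 of them, 24 passed the filter and 8 read 0 everywhere. Of the 24, 4 were under 1 FPKM in both siNeg libraries and passed only through the siRNA libraries. Among the other 20, 8 rose and 4 fell with siEWSR1 and 9 rose and 4 fell with siFLI1. Of all 12184 tested genes that reached 1 FPKM in a siNeg library, 3574 rose and 4041 fell with siEWSR1. With siFLI1 3904 of them rose and 3861 fell. The list was not tested against these counts. Over all 24, with siEWSR1 12 were called higher and 4 lower, with a median log2 difference of 0.27 against 0.01 over all genes. With siFLI1 13 were called higher and 4 lower, with a median of 0.26 against 0.04. The counts and medians over all 24 include the 4 genes whose entry depended on the siRNA libraries, so nothing was read from them. *BLCAP*, which encodes a small membrane protein, rose from 11.4 and 10.7 FPKM with siNeg to 33.1 and 35.3 with siEWSR1 and 39.9 and 42.9 with siFLI1. *NDN*, a growth-restraining member of the MAGE family from the Prader-Willi region, rose from 1.07 and 1.10 FPKM to 3.65 and 3.84 and to 4.73 and 4.92.

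Other genes of that list moved less. *IPW*, a noncoding RNA of the Prader-Willi region, rose by 0.77 ± 0.11 and 0.82 ± 0.11 (log2(FPKM + 0.5)). *NAP1L5*, a nucleosome assembly protein gene and 1 of the 4 under 1 FPKM with siNeg, was higher by 0.92 ± 0.10 and 0.81 ± 0.10. *ANO1*, a chloride channel, rose by 0.67 ± 0.07 and 0.59 ± 0.07. *ZNF331*, a zinc finger gene, fell from 12.2 and 12.4 FPKM to 8.0 and 7.58 with siEWSR1 and 7.85 and 7.84 with siFLI1. Between the siRNAs 0 of the 24 tested were called higher with siEWSR1 and 3 lower, beside 0.79% and 3.07% over all genes. The list was not tested against these shares. The 3 were *TFPI2*, *SNURF* and *SNRPN*. *TFPI2*, a serine protease inhibitor, was also under 1 FPKM with siNeg (-0.58 ± 0.11, a description). *SNURF* differed by -0.51 ± 0.09 (limma adjusted p = 0.0414). *SNRPN*, a splicing factor made from the same transcript as *SNURF*, differed by -0.29 ± 0.05 (limma adjusted p = 0.0355). None of those 3 calls remained when any 1 library was left out.

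**Figure D4:**
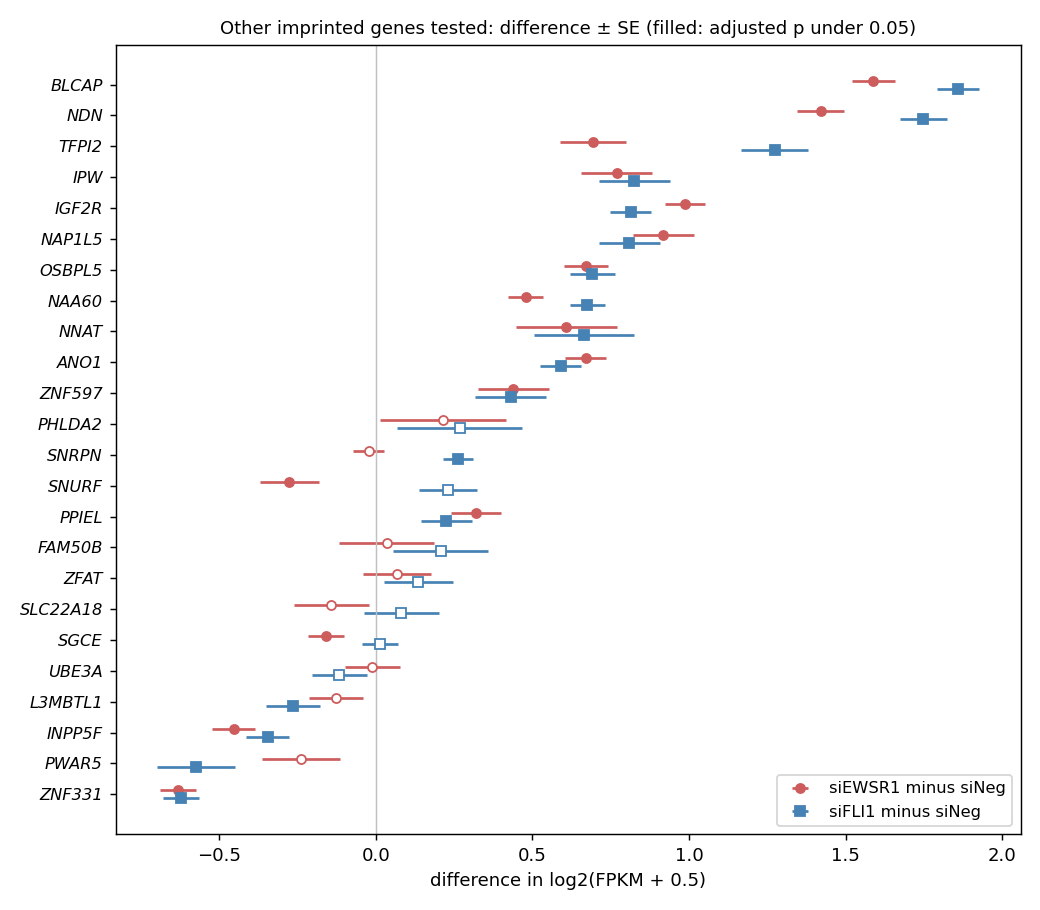
Difference from siNeg in log2(FPKM + 0.5) with standard error (x axis) for the 24 tested imprinted genes outside the set of 10 (y axis, ordered by the siFLI1 value). Filled symbols have an adjusted p under 0.05; *BLCAP* (1.59 and 1.86) and *NDN* (1.42 and 1.75) lie highest and *ZNF331* (-0.63 and -0.62) lowest with siEWSR1.

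Relatives of the members were also measured. Of 17 listed paralogs, 11 were tested, of which 1 was under 1 FPKM in both siNeg libraries. With siEWSR1 6 of the other 10 rose and 1 fell, and with siFLI1 6 rose and 2 fell. Of all 12184 tested genes that reached 1 FPKM in a siNeg library, 3574 rose and 4041 fell with siEWSR1. With siFLI1 3904 of them rose and 3861 fell. Between the siRNAs 0 of the 10 were called higher with siEWSR1 and 3 lower, beside 86 and 319 of the 12184. The paralogs were not tested against these counts. *CDKN1A*, the p53-responsive relative of *CDKN1C*, rose from 5.02 and 5.24 FPKM with siNeg to 43.3 and 44.9 with siEWSR1 and 75.0 and 83.7 with siFLI1. Like *CDKN1C* it was lower with siEWSR1 than with siFLI1 (-0.84 ± 0.07, limma adjusted p = 0.00554). *CDKN1B*, the other gene of that family, fell by 0.28 ± 0.09 and by 0.43 ± 0.09 and is named here after its values were seen. *LDOC1* and *FAM127A*, retrotransposon-derived relatives of *PEG10*, rose by 0.81 ± 0.11 and 0.75 ± 0.07 with siEWSR1 and by 1.30 ± 0.11 and 1.13 ± 0.07 with siFLI1, while *PEG10* itself was lower.

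*IGF2R*, *PIK3R1* and *IGF2BP1*, named from a list of IGF2 receptors, adaptors and RNA-binding proteins, were expressed at higher levels than *IGF2* itself in every library. Of 18 listed receptors, adaptors and RNA-binding proteins 17 were tested, and 7 rose and 5 fell in each comparison. Over all 13043 genes 33.2% were called higher and 31.0% lower with siEWSR1, and 35.7% and 29.6% with siFLI1. The list was not tested against these shares. *IGF2R*, an imprinted receptor in other mammals that clears IGF2, rose from 10.8 and 11.01 FPKM with siNeg to 21.3 and 23.0 with siEWSR1 and 18.9 and 20.3 with siFLI1. *PIK3R1*, a regulatory subunit of phosphoinositide 3-kinase, rose from 2.76 and 2.77 FPKM to 35.1 and 44.3 and to 37.5 and 43.8. *IGF2BP1*, which binds *IGF2* mRNA, fell from 75.1 and 78.4 FPKM to 51.2 and 47.2 with siEWSR1 and 40.2 and 37.8 with siFLI1. It was higher with siEWSR1 than with siFLI1 (0.33 ± 0.06, limma adjusted p = 0.0462). That call lies close to the threshold of 0.05. Over all genes 504 were called between the siRNAs, and 88 without the filter on low values.

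Regulators of imprints and DNA methylation moved in both directions. Of 32 listed, 24 were tested, of which 6 rose and 9 fell with siEWSR1 and 7 rose and 10 fell with siFLI1. Over all 13043 genes 33.2% were called higher and 31.0% lower with siEWSR1, and 35.7% and 29.6% with siFLI1. The list was not tested against these shares. *DNMT1*, which copies DNA methylation at replication, fell from 57.5 and 60.9 FPKM with siNeg to 36.4 and 31.4 with siEWSR1 and 32.6 and 30.04 with siFLI1. *HELLS*, a chromatin remodeller needed for DNA methylation, fell from 12.6 and 12.2 FPKM to 5.86 and 5.96 and to 5.68 and 5.75. *EZH2*, the histone methyltransferase of Polycomb complexes, fell by 0.89 ± 0.07 and 1.12 ± 0.07. *TET1*, which oxidises methylated cytosine, fell by 0.67 ± 0.10 and 1.01 ± 0.10, and *TET2* rose by 0.74 ± 0.09 and 0.32 ± 0.09. *CTCF*, the factor of the *H19* control region, named after its values were seen, read 15.6 to 16.5 FPKM in all 6 libraries and was not called. DNA methylation was not measured.

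The tested genes whose pattern over the 6 libraries was nearest to that of *H19* (Euclidean distance of log2(FPKM + 0.5) from the siNeg mean) were *IGFBP3* at 0.513, *MGP* at 1.02, *TGM2* at 2.37, *SULF2* at 2.43 and *ART5* at 2.93. *IGFBP3*, a secreted binding protein of insulin-like growth factors, read 1.74 and 1.69 FPKM with siNeg, 493.7 and 559.9 with siEWSR1 and 424.8 and 456.2 with siFLI1. *MGP*, an inhibitor of calcification, read 0.898 and 1.10 FPKM, then 302.8 and 370.0, and 403.4 and 428.8. None of the 5 is a member or lies within 250 kb of one, and the distance mostly reflects the size of the difference from siNeg.

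Checks of the libraries follow. The deposited bounds correspond, as an approximation, to 15159073 to 16298374 fragments a library, and 12079 to 12741 genes reached 1 FPKM. *EWSR1* read 46.5 and 47.2 FPKM with siNeg and 34.7 and 32.3 with siEWSR1, and *FLI1* 10.9 in both siNeg libraries and 8.98 and 8.56 with siFLI1. *FLI1* with siEWSR1 read 10.4 and 10.6 FPKM and *EWSR1* with siFLI1 51.2 and 50.2 FPKM, and these gene-level values add any fusion reads to those of the normal genes. All 10 tested Ewing sarcoma markers of 12 listed fell with siEWSR1 and 8 fell with siFLI1. Over all 13043 genes 31.0% were called lower with siEWSR1 and 29.6% with siFLI1. The markers were not tested against these shares. Summed over the 12 markers, the level was 896.3 and 909.7 FPKM in the siNeg libraries, 476.8 and 565.1 in those with siEWSR1, and 515.4 and 547.3 in those with siFLI1.

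Over all 13043 genes 33.2% were called higher and 31.0% lower with siEWSR1, and 35.7% and 29.6% with siFLI1. The marker lists below were not tested against these shares. Of 10 listed markers of fibroblasts and muscle 5 were tested. With each siRNA *COL1A1*, *PDGFRB*, *PDGFRA* and *DES* were called higher, the last pair under 1 FPKM with siNeg, and *THY1*, a surface glycoprotein, fell. The most abundant with the siRNAs was *COL1A1*, a collagen chain, at 6.90 and 8.09 FPKM with siNeg, 102 and 99.0 with siEWSR1 and 134 and 144 with siFLI1. Summed over the 10 markers, the level was 44.4 to 44.9 FPKM with siNeg, 152.7 to 157.9 with siEWSR1 and 191.2 to 202.3 with siFLI1. Without *COL1A1* it was 36.3 to 37.9 FPKM, 53.6 to 56.1 and 56.8 to 58.6. The muscle regulators *MYOD1* and *MYOG* were at or under 0.0212 FPKM in all 6 libraries, and the fibroblast proteoglycans *DCN* and *LUM* at or under 0.7001 FPKM. Of blood markers *CD3E* and *HBB* read 0 everywhere, and the summed level of the 8 listed was 0.326 to 0.413 FPKM with siNeg, 2.08 to 2.51 with siEWSR1 and 3.39 to 3.74 with siFLI1, with *CD34* the 1 tested gene, under 1 FPKM with siNeg. Of 9 listed epithelial markers 4 were tested, 2 of them under 1 FPKM in both siNeg libraries. With each siRNA 3 of the 4 were called higher and 1 lower. Epithelial markers summed to 23.9 to 25.2 FPKM with siNeg and 27.3 to 31.8 with the siRNAs, and endothelial ones to 25.02 to 27.0 and 17.5 to 26.4. The 1 tested endothelial marker, *EGFL7*, was called lower with siEWSR1 and not called with siFLI1. The part of these markers in the differences of the members was not tested.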

How the data were processed

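RNA was measured in 6 TC32 libraries. The authors deposited gene-level FPKM values with the lower and upper bounds of a 95% interval. Per the submitters' processing notes, the tools were TopHat2 2.0.13, Cufflinks and Cuffdiff and the build hg19. The sources used here give no annotation or strand setting. Rows of the same symbol were summed (380 of 26931 symbols). FPKM is relative to a library's total and is inflated for short RNAs. Fragments were read from a deposited bound as the square of 2 FPKM over its distance; only 36.3% to 39.0% of low values were whole within 0.01, so no counts were recovered.

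Genes with at least 1 FPKM in at least 2 libraries (13043) were put through limma 3.58.1 (R 4.3.3) on the log2(FPKM + 0.5) scale, with a variance trend and 1 fit over the 3 groups (3 residual and 3.39 prior degrees of freedom). P-values are two-sided and adjusted over all genes by Benjamini-Hochberg, threshold 0.05. The step was tested on simulated data. The members and lists were chosen with earlier results of these data known. Genes outside the members were named by size of change: up to 3 called neighbours a member within 250 kb, up to 4 called genes a list and comparison, overlapping rows, and the 5 genes nearest to H19. Alternatives changed the pseudocount, filter, scaling, variance model, row summing, replicate block and library set. Gene starts in the files counted from 0 and were raised by 1. RefSeq promoters and microRNAs (GRCh38.p14) covered 5 of 10 members by symbol for promoters; no coordinate was moved between builds.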

Additional observations from a re-analysis of the deposited data

How the results depend on the processing

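With siEWSR1 against siNeg 8372 genes were called, with siFLI1 against siNeg 8517 and between the siRNAs 504. The first 2 counts stayed within 1.5 times under each alternative run (6731 to 8025 and 6855 to 8803 on leaving out 1 library, where a lone library is assumed to vary like the other groups). The count between the siRNAs was 88 without a filter on low values, 825 with a robust variance trend and 5 to 593 on leaving out 1 library: 5 without siFLI1 replicate 2, 23 without siFLI1 replicate 1, 106 without siEWSR1 replicate 2, and 103 and 89 without siNeg replicate 1 and 2. Of the other imprinted genes 16, 17 and 3 were called in the 3 comparisons. A minimum mean FPKM of 5 left 8 and 7, since fewer genes were tested. Between the siRNAs 0 were called without a filter, 1 with quantile normalization, and 0 to 0 on leaving out any 1 library.

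With a replicate block 8190, 8307 and 319 genes were called, with 1 of the other imprinted genes between the siRNAs, and the block changed no call of a member between the siRNAs. Libraries with the same number did not deviate together (r = -0.14 between siNeg and siEWSR1, -0.05 between siNeg and siFLI1, 0.07 between siEWSR1 and siFLI1), so the numbers were not taken as pairs. A crossed pairing of the siNeg numbers, added after seeing the data, gave 8838, 8953 and 676 calls.

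Among the members, 2 differences reversed, both under quantile normalization: IGF2 with siFLI1 against siNeg at -0.02816 and PLAGL1 with siEWSR1 against siNeg at -0.0228; the cause was not tested. Against siNeg a further 17 and 16 values moved by more than 1 SD without a change of direction, and between the siRNAs 15 fits lost a call (of IGF2, CDKN1C or MEST) and 94 did not change one. IGF2, MEST and PLAGL1 gave no value under a mean FPKM of at least 5. Depth limits the members at low levels. As approximated from the bounds, H19, IGF2 and DLK1 with siNeg, and PEG3 in every library, rest on under 4 fragments. So does GRB10 in siFLI1 replicate 2.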
